A study of Homo sapiens with 12 samples.

Results

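The genes described here are the members of the 4 human HOX clusters, HOXA, HOXB, HOXC and HOXD, as the array names them: every gene symbol made of the cluster letter and a number. The array held 39 such genes (11 in HOXA, 10 in HOXB, 9 in HOXC and 9 in HOXD) on 44 probes. Where a gene had more than 1 probe, the brightest with a value on all 12 arrays was read. Of the 39 genes, 37 were among the 25622 named genes with a value on every array, and 29 passed the filter on dim genes (9, 8, 5 and 7 per cluster), which asked for a signal well above background on at least 2 arrays. Well above background means that the scanner software marked the spot as more than 2.6 background SDs above its local background.

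RNA came from human proximal tubular cells (HPTC) labelled as 2 immortalized lines, HK-2 and RPTEC/TERT1, each a single line grown at normal glucose. The cells were kept without serum and supplements for 24 h and then left as control, given the inflammatory cytokine IL-1β at 10 ng/mL, or given the SGLT2 inhibitor empagliflozin (Empa) at 500 nM, each for 24 h. Each of the 6 groups had 2 arrays, described by the study as biological duplicates, and the 12 arrays lay on 4 slides, each slide holding control, IL-1β and Empa of 1 line and replicate number. Slides are called below by the labelled line and replicate number, and values are listed in the order HK-2 slide 1, HK-2 slide 2, RPTEC/TERT1 slide 1, RPTEC/TERT1 slide 2. A level is the log2 of a probe's signal over the 75th percentile of its array, so a level of 0 lies at that percentile, and a level is compared here only with levels of the same probe. A level of -8.71 is the floor given to signals at or below background.

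HOX genes encode transcription factors that bind DNA through the homeodomain, a domain encoded by the homeobox. They lie in clusters in which the order of the genes on the chromosome follows the order in which they are used along the body axis, with low numbers towards the head and high numbers towards the tail. Genes of the same number in different clusters are paralogs. Polycomb complexes keep HOX genes silent, KMT2 complexes keep them active, retinoic acid switches on genes of low number, and PBX and MEIS proteins bind DNA together with HOX proteins. In kidney formation the paralogs of group 11 act in the early kidney mesenchyme, and adult kidney cells and lines grown from them keep part of the HOX pattern of their origin.

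Because paralogs share the homeobox, the probes of different HOX genes were compared with each other for shared runs of bases. On hg19 the probes of HOXA genes lay on chromosome 7, those of HOXB on chromosome 17 between 46607916 and 46802203, those of HOXC on chromosome 12 between 54340034 and 54449814, and those of HOXD on chromosome 2 between 176960600 and 177055431. The following 60-base probes, written 5′ to 3′ in the sense of the gene, read homeobox sequence, that of HOXD9 only in part. Capitals mark the longest run that the probe shares with a probe of another HOX gene.
HOXC10 (chr12:54383100-54383159, plus strand): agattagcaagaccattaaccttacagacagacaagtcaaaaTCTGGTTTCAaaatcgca
HOXB2 (chr17:46620897-46620956, minus strand): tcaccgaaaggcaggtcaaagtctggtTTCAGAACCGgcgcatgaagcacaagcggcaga
HOXA5 (chr7:27181547-27181606, minus strand): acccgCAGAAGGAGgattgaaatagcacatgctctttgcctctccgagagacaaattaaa
HOXD9, the dimmer of its probes (chr2:176988842-176988901, plus strand): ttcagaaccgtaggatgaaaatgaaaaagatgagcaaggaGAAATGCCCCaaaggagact
HOXC12 (chr12:54350226-54350285, plus strand): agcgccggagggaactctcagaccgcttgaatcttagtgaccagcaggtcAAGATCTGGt
The HOXC10 and HOXB2 probes read overlapping stretches of the homeobox, and the HOXC10 probe's longest run in common with HOXB2 was 10 bases. Over the 44 probes the median longest run shared with a probe of another HOX gene was 9 bases. Most probes read different parts of their genes, and no probe was compared with the transcripts of paralogs. The runs therefore cannot show whether a homeobox probe takes up RNA of a paralog, which was not tested.

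The line labels went against the data, so every result is given by slide. Across 12587 genes outside the HOX clusters, the control array of HK-2 slide 1 correlated with that of RPTEC/TERT1 slide 2 at r = 0.984, and that of HK-2 slide 2 with that of RPTEC/TERT1 slide 1 at r = 0.973. The control arrays of a labelled line correlated with each other at r = 0.876 (HK-2) and r = 0.871 (RPTEC/TERT1). These correlations are across genes, which are not independent replicates. One field of the sample descriptions also names HK-2 for all arrays, and the line was taken from the sample titles. The share of probes well above background ran from 53.5% to 63.1% over the arrays. Slides of replicate number 1 shared a scan day, and slides of number 2 shared another, so replicate number and scan day cannot be told apart. Of 11 proximal tubule markers, 5 (LRP2, AQP1, SLC5A2, GGT1 and MME) were well above background on all 4 control arrays, while CUBN and HNF4A were so on no array.

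Most HOX genes were detected in the control cells, and most of those that were not lay at the ends of the clusters. Of 39 genes, 26 were well above background on all 4 control arrays. By slide, 28 of 38, 29 of 39, 28 of 38 and 27 of 38 genes with a control value were well above background. Paralog groups 2, 3, 6, 7, 8 and 10 were well above background on all 4 control arrays in every cluster that holds them. Genes not well above background on any control array included HOXB1 of group 1, HOXC5 of group 5, and HOXC11, HOXC12, HOXD12, HOXA13 and HOXD13 of groups 11 to 13. In groups 11 to 13 as a whole, 1 of 9 genes (HOXD11) was well above background on all 4 control arrays. HOXB1, HOXC11, HOXC12, HOXD12 and HOXD13 were well above background on none of the 12 arrays, and HOXA13 and HOXC5 on 1 each, both with Empa.

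**Figure D1:**
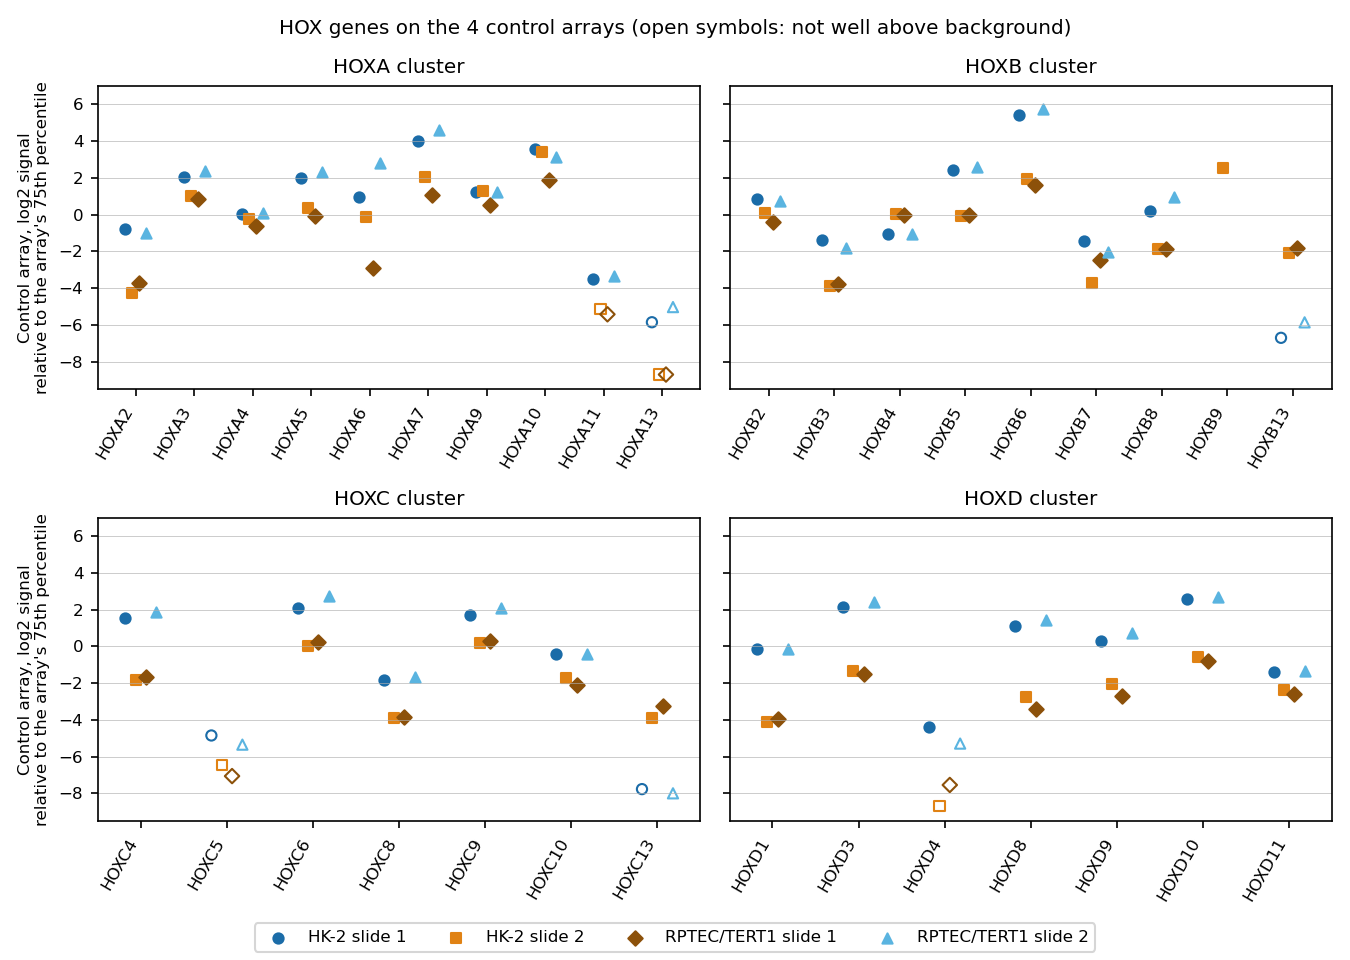
Level of each HOX gene that was well above background on at least 1 of the 12 arrays, on the 4 control arrays (log2 signal relative to the 75th percentile of the array), with genes in the order of their numbers in each cluster. Each symbol is 1 array, open symbols are not well above background, and HOXB9 had a control value on 1 slide only. For most genes the symbols of HK-2 slide 1 and RPTEC/TERT1 slide 2 lie together and above those of HK-2 slide 2 and RPTEC/TERT1 slide 1, with HOXB4, HOXB13 and HOXC13 the other way round.

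The control levels separated the slides, not the labelled lines. The median size of the difference between the labelled lines over 29 tested genes was 0.16 log2 units, against a median gap of 2.07 between the HK-2 slides and of 2.41 between the RPTEC/TERT1 slides. For 27 of the 29 genes the difference between lines was smaller than either gap, and HOXA9 and HOXA10 were the exceptions. HOXB6, for example, averaged 3.68 ± 2.50 in HK-2 and 3.67 ± 2.92 in RPTEC/TERT1 (SD, n = 2 arrays each). In limma across all 17821 tested genes, RPTEC/TERT1 control differed from HK-2 control for 0 HOX genes and 0 genes in all (0.0%) at a Benjamini-Hochberg adjusted p under 0.05, also with the replicate number as a block, and 0 HOX genes had an unadjusted p under 0.05 in either fit. Between the slides of a line, 24 of 29 HOX genes differed at least 2-fold on the control arrays of HK-2, where 36.3% of all genes did, and 25 of 28 on those of RPTEC/TERT1, where 39.9% did. Between HK-2 slide 1 and RPTEC/TERT1 slide 1 it was 27 of 29 (38.1% of all genes), and between HK-2 slide 2 and RPTEC/TERT1 slide 2 it was 24 of 28 (37.4%). Between HK-2 slide 1 and RPTEC/TERT1 slide 2 it was 1 of 27 (HOXA6; 6.96% of all genes), and between HK-2 slide 2 and RPTEC/TERT1 slide 1 it was 3 of 27 (9.88%). Each of these is 1 array against another, with no replicate check.

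By measured level, the widest control ranges were those of HOXA6, HOXB13, HOXD8, HOXC13, HOXD4, HOXB6, HOXD1 and HOXD3. Those of HOXB13, HOXC13 and HOXD4 include signals not well above background, and their largest differences as bounds were 4.00, 2.55 and 1.75 log2 units. Such bounds, described below, are not strict limits. As bounds, HOXC13 and HOXD4 lay below the range of HOXC4 (3.68), which was detected on all 4 control arrays. HOXA6, a mid-cluster gene, was at 0.97, -0.11, -2.93 and 2.83 on the control arrays, a range of 5.76, with no slide within 1 log2 unit of another. HOXB6, which is known from blood-forming cells, was at 5.45, 1.92, 1.61 and 5.74. Both genes were highest on RPTEC/TERT1 slide 2 and lowest on RPTEC/TERT1 slide 1. In the HOXD cluster, HOXD8 was at 1.13, -2.74, -3.44 and 1.41. HOXD1 was at -0.17, -4.10, -3.95 and -0.17. HOXD3 was at 2.16, -1.35, -1.49 and 2.42. In all these HOXD genes the levels of HK-2 slide 1 and RPTEC/TERT1 slide 2 lay within 1 log2 unit of each other and more than 3 log2 units above both other slides. HOXD4 was at -4.39 on HK-2 slide 1, at -8.71, -7.55 and -5.30 on the others, and was well above background only on the first of these control arrays.

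HOXB13 and HOXC13, of the last paralog group, had the opposite order. HOXB13, which in the adult is best known from the prostate and distal colon, was at -2.07 and -1.83 on HK-2 slide 2 and RPTEC/TERT1 slide 1, and at -6.71 and -5.87, not well above background, on HK-2 slide 1 and RPTEC/TERT1 slide 2. HOXC13, known for its role in hair and nail, was at -3.89 and -3.27 on HK-2 slide 2 and RPTEC/TERT1 slide 1 and at -7.78 and -8.00, not well above background, on HK-2 slide 1 and RPTEC/TERT1 slide 2. HOXB4 was likewise higher on HK-2 slide 2 and RPTEC/TERT1 slide 1. At the other end, the control levels of HOXA4 (0.01, -0.23, -0.60 and 0.08), HOXA9 (1.25, 1.27, 0.51 and 1.24) and HOXB4 (-1.06, 0.03, -0.02 and -1.05) had the smallest ranges among genes detected on all 4 control arrays, 0.68, 0.76 and 1.10 log2 units. The neighbours HOXA3 and HOXA5 had ranges of 1.56 and 2.41, so a narrow range was not shared along the HOXA cluster.

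Some markers outside the clusters moved with the same slides, and others did not. Of 4 epithelial markers, EPCAM, KRT8 and KRT18 were well above background on all 12 arrays, while CDH1 was at 2.81 and 2.98 on the control arrays of HK-2 slide 1 and RPTEC/TERT1 slide 2 and at -5.40 and -5.72, not well above background, on the others. The summed signal of the 4, as a multiple of the 75th percentile, was 81.2 and 86.6 on the former slides and 43.4 and 38.0 on the latter. Of 7 renal lineage genes, PAX8 and LHX1 were among those detected on all 4 control arrays, and PAX2 was at 3.29 and 3.31 on the former slides and at the floor on the latter, with summed signals of 27.2 and 27.4 against 5.95 and 6.61. The 4 fibroblast markers summed to 0.172 and 0.155 on the former and to 6.53 on each of the latter, through DCN alone, and PDGFRB was well above background on no array. The 4 endothelial markers summed to between 0.184 and 0.255 with PECAM1 and KDR well above background on no array, and the 4 leukocyte markers to between 0.150 and 0.484. The 4 podocyte markers summed to between 1.72 and 3.03. The 11 proximal tubule markers summed to 4.62, 4.32, 2.84 and 4.92 in slide order, and so did not separate the same slides. Of 5 distal tubule and collecting duct markers, 4 (SLC12A3, CALB1, AQP2 and GATA3) were well above background on no array, and SLC12A1 was at 4.34 and 4.99 on HK-2 slide 1 and RPTEC/TERT1 slide 2 and at the floor on the others. The part of these differences in the HOX levels was not tested. In bulk RNA, fewer cells of a type and less RNA per cell cannot be told apart.

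With IL-1β, most HOX genes were at least 2-fold lower than control on HK-2 slide 1 and RPTEC/TERT1 slide 2, and few were on the other slides. The counts were 16 of 27 HOX genes on HK-2 slide 1, where 14.0% of all genes were this much lower, and 14 of 27 on RPTEC/TERT1 slide 2, where 11.9% were. On HK-2 slide 2 it was 2 of 28 (HOXC10 and HOXC13; 8.94% of all genes), and on RPTEC/TERT1 slide 1 it was 1 of 27 (HOXC13; 5.24%). Lower by any amount were 25 of 27, 15 of 28, 17 of 27 and 23 of 27 HOX genes in slide order, beside 59.7%, 57.3%, 56.2% and 50.4% of all genes. At least 2-fold higher was HOXB13 alone, on RPTEC/TERT1 slide 2, where 11.0% of all genes were higher; the shares of all genes higher on the other slides were 8.49%, 5.19% and 3.27%. The median log2 difference of the HOX genes was -1.17, -0.03, -0.13 and -1.02 in slide order, beside -0.17, -0.13, -0.06 and -0.01 for all genes. Where 1 of the compared arrays was not well above background, the difference is a bound, in which the dim signal is replaced by the lowest signal well above background on that array where it lies under it. Such a bound is not a strict limit. On the RPTEC/TERT1 slide 2 control the lowest signal well above background was -5.64, yet HOXD4 at -5.30 was not well above background.

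**Figure D2:**
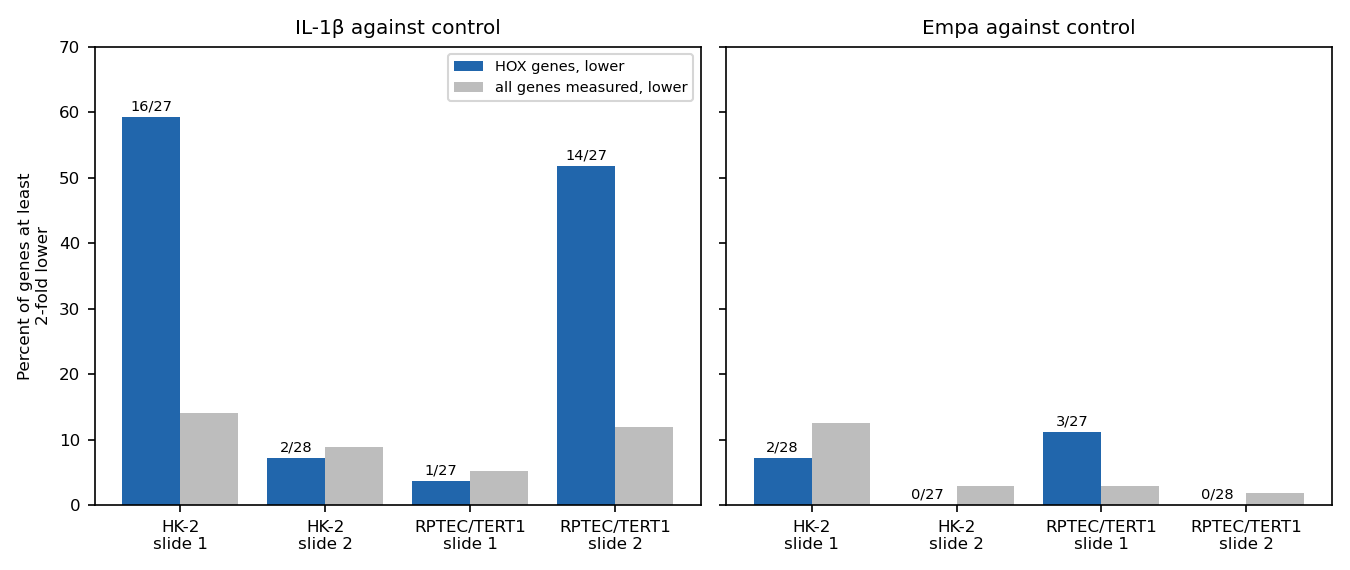
Percent of genes at least 2-fold lower than the control array of the same slide, for HOX genes (blue, with counts) and for all genes measured on that slide (grey), with IL-1β on the left and Empa on the right. With IL-1β the blue bars stand far above the grey ones on HK-2 slide 1 and RPTEC/TERT1 slide 2 and not on the other slides, and with Empa no blue bar exceeds 3 of 27 genes.

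The same HOX genes were involved on both slides. All 14 genes that were at least 2-fold lower on RPTEC/TERT1 slide 2 were among the 16 on HK-2 slide 1: HOXA2, HOXA3, HOXA4, HOXA5, HOXA6, HOXA7, HOXB5, HOXB8, HOXC4, HOXC10, HOXD3, HOXD8, HOXD9 and HOXD10. The others were HOXA9 and HOXB3, and HOXB3 lay just outside the limit on RPTEC/TERT1 slide 2, at 2.00-fold lower after rounding. The shared genes were 14 of 14 and 14 of 16 of the respective lists. Over all genes measured on both slides 9.56% were lower on both, or 81.0% and 71.8% of the respective lists, so most genes on either list were shared by these slides, inside the HOX clusters and outside them. The 2 slides share no array. HOXC6, which was left out of these counts because 1 of its 12 spots was an outlier, differed by -1.24, 0.38, -0.16 and -1.27. HOXB9 had outlier spots on 8 arrays and no slide with both values.

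All 4 clusters took part. The HOXA genes had a median difference of -1.74 on HK-2 slide 1 and -1.22 on RPTEC/TERT1 slide 2, with 7 and 6 of 9 at least 2-fold lower. The HOXB genes had medians of -0.91 and -0.63, with 3 of 7 and 2 of 8 lower. The HOXC genes had medians of -1.05 and -0.81 (2 of 4 lower on each), and the HOXD genes of -1.17 and -1.44 (4 of 7 and 4 of 6). Along the clusters, 4 of 6 measured genes of groups 1 to 3, 8 of 13 of groups 4 to 8, 4 of 6 of groups 9 and 10, and 0 of 2 of groups 11 to 13 were at least 2-fold lower on HK-2 slide 1. On RPTEC/TERT1 slide 2 the counts were 3 of 6, 8 of 12, 3 of 6 and 0 of 3. Control levels and IL-1β differences were set side by side on slides that share no array. Of 20 genes at least 2-fold higher on the control of HK-2 slide 1 than on that of HK-2 slide 2, 13 were at least 2-fold lower with IL-1β on RPTEC/TERT1 slide 2, against 1 of 7 others (HOXA4). Of 22 genes at least 2-fold higher on the control of RPTEC/TERT1 slide 2 than on that of RPTEC/TERT1 slide 1, 14 were so on HK-2 slide 1, against 2 of 4 others (HOXA4 and HOXA9). These counts were made for HOX genes only. Whether genes outside the clusters with high control levels fell as often was not tested. HOXB6, HOXC9 and HOXD1 were among the genes with high control levels that did not reach 2-fold on either slide, with HOXB6 at -0.91 and -0.93.

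**Figure D3:**
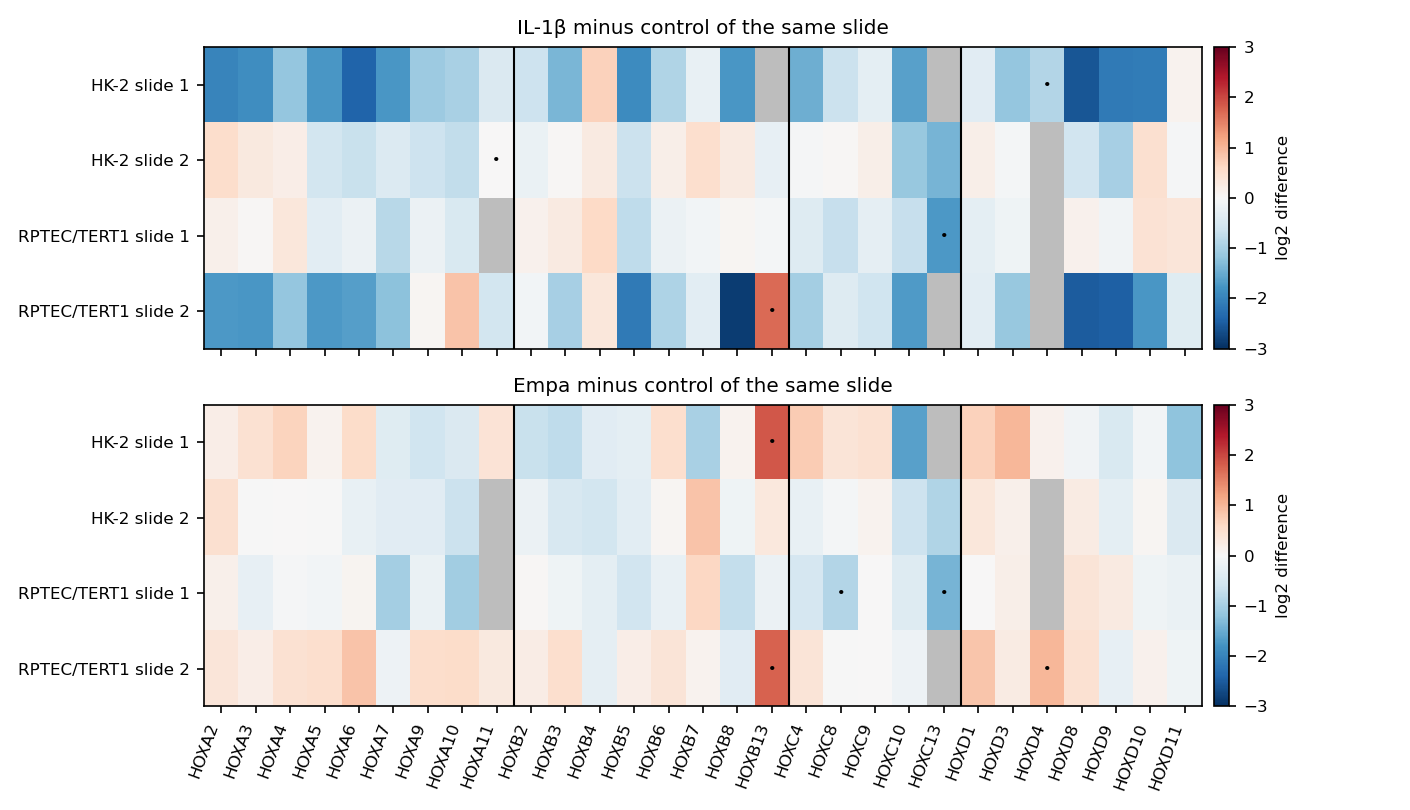
Log2 difference from the control array of the same slide for each HOX gene, with IL-1β and with Empa, by slide. Blue is lower and red higher, grey cells were not well above background on either array or had no value, and a black dot marks a bound. The IL-1β rows of HK-2 slide 1 and RPTEC/TERT1 slide 2 are blue for most genes of all 4 clusters, and HOXB4 is higher on all 4 slides.

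On all 4 slides, 8 of 29 HOX genes were lower with IL-1β than on the control (HOXA5, HOXA6, HOXA7, HOXB5, HOXC4, HOXC10, HOXD3 and HOXD9), as were 23.6% of all genes, so the share of HOX genes was near that of all genes. The sizes were not alike on the 4 slides, as the following genes show, from the largest mean difference down.

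HOXD9, which acts in the limb and lumbar trunk, was at 0.31, -2.07, -2.69 and 0.70 on the control arrays and at -1.81, -3.05, -2.80 and -1.74 with IL-1β. With IL-1β the levels on the 2 slides with high controls lay within 1 log2 unit of the control levels of the other slides. The log2 difference was -1.42 ± 1.07 (SD, n = 4 slides), from 5.42-fold lower on RPTEC/TERT1 slide 2 to 1.08-fold lower on RPTEC/TERT1 slide 1.

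HOXB5, a mid-cluster gene known from the gut and lung, was at 2.40, -0.07, -0.05 and 2.57 on the control arrays and at 0.52, -0.71, -0.80 and 0.44 with IL-1β. On each slide the IL-1β array was the lower, and over the slides the ranges of control and IL-1β overlapped. The log2 difference was -1.35 ± 0.76 (SD, n = 4 slides), with 3.68-fold and 4.36-fold lower levels on the slides with high controls and 1.56-fold and 1.68-fold on the others.

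HOXC10, a gene of the lumbar region and limb whose probe sequence is shown above, was at -0.43, -1.72, -2.10 and -0.44 on the control arrays and at -2.07, -2.86, -2.80 and -2.14 with IL-1β. The highest IL-1β level lay just above the lowest control level. The log2 difference was -1.29 ± 0.47 (SD, n = 4 slides), or 3.12-fold, 2.20-fold, 1.62-fold and 3.24-fold lower in slide order. Its SD was the smallest of the 6 genes with the largest mean differences.

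HOXA6, HOXA5 and HOXA7 lie next to each other. HOXA6 was at -1.43, -0.77, -3.11 and 1.18 with IL-1β, a log2 difference of -1.22 ± 1.00 (SD, n = 4 slides) with a 5.27-fold lower level on HK-2 slide 1 and a 1.13-fold lower level on RPTEC/TERT1 slide 1. HOXA5, known from lung and airway formation, was at 2.01, 0.37, -0.10 and 2.31 on the control arrays and at 0.25, -0.19, -0.41 and 0.58 with IL-1β. HOXA7 was at 4.02, 2.03, 1.06 and 4.61 on the control arrays and at 2.28, 1.63, 0.23 and 3.39 with IL-1β. The log2 differences of HOXA5 and HOXA7 were -1.09 ± 0.76 and -1.05 ± 0.57 (SD, n = 4 slides), and in both genes the control and IL-1β ranges overlapped across slides.

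HOXD8 and HOXB8 also differed in size between slides. HOXD8 was at -1.43, -3.32, -3.32 and -1.09 with IL-1β, 5.88-fold and 5.65-fold lower on the slides with high controls, 1.49-fold lower on HK-2 slide 2 and 1.09-fold higher on RPTEC/TERT1 slide 1. HOXB8, singled out after its values were seen, was at 0.19, -1.88, -1.90 and 0.95 on the control arrays and at -1.55, -1.60, -1.85 and -1.89 with IL-1β, which is 3.35-fold and 7.14-fold lower on the former slides and 1.21-fold and 1.03-fold higher on the others. With IL-1β the 4 HOXB8 levels lay within 1 log2 unit of each other.

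HOXB4, a gene known for the growth of blood-forming stem cells and present in the study's list of genes up with IL-1β and down with Empa, was at -1.06, 0.03, -0.02 and -1.05 on the control arrays, at -0.36, 0.30, 0.57 and -0.70 with IL-1β, and at -1.39, -0.51, -0.32 and -1.33 with Empa. It was the only 1 of 29 HOX genes higher with IL-1β on 4 of 4 slides, where 14.0% of all genes were. Its log2 difference was 0.48 ± 0.20 (SD, n = 4 slides) with IL-1β and -0.36 ± 0.12 with Empa, both against the same control arrays. The study picked HOXB4 on these arrays, so its directions here are not independent evidence.

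**Figure D4:**
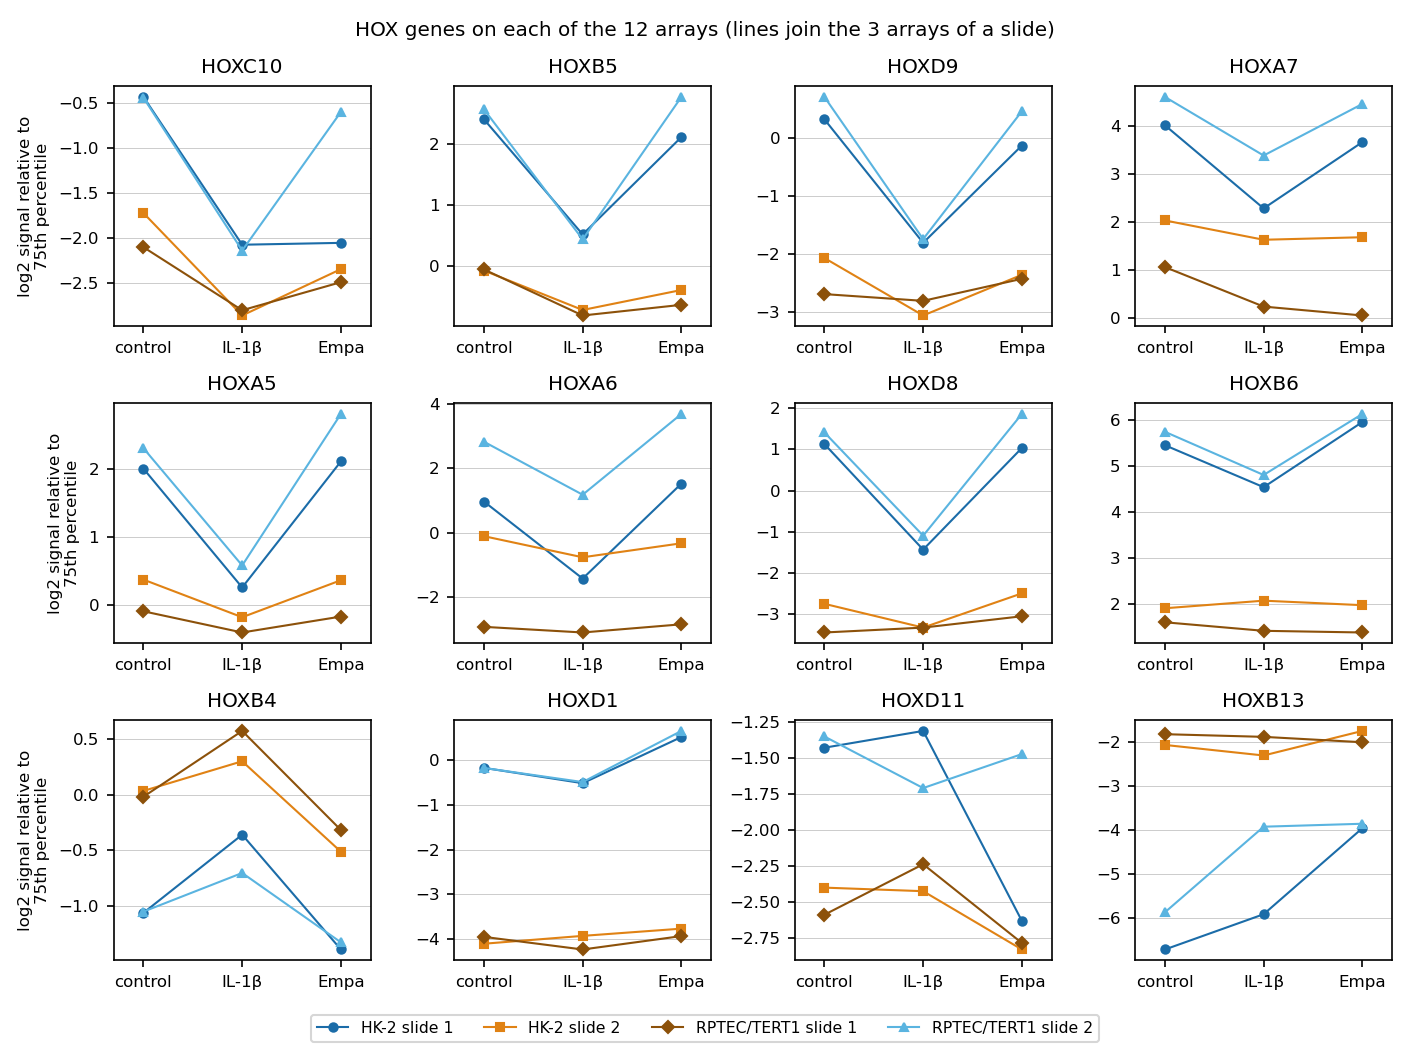
Level (log2 signal relative to the 75th percentile of the array) of 12 HOX genes on the 12 arrays, with lines joining the 3 arrays of a slide. Each panel has its own scale. HOXC10, HOXB5, HOXA7, HOXA5 and HOXA6 were lower with IL-1β on every slide, by more on HK-2 slide 1 and RPTEC/TERT1 slide 2, and HOXB4 was higher on every slide.

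In the limma fit that ignores the slides, no HOX gene passed (0 at an adjusted p under 0.05) with IL-1β in HK-2 (0 genes in all, 0.0%), in RPTEC/TERT1 (0.0%), as the mean of both lines (3 of 17821 genes, 0.0168%) or as the difference between lines (0.0%), and 0 HOX genes had an unadjusted p under 0.05. The spread that this fit sees is the gap between the slides of a labelled line. The 3 arrays of a slide deviate together, and with the replicate number as a block 567 genes (3.18%) passed for the mean of both lines. None of these was a HOX gene: 8 of 29 HOX genes had an unadjusted p under 0.05 (HOXA5, HOXA6, HOXA7, HOXB4, HOXB5, HOXC10, HOXD8 and HOXD9), and the smallest adjusted p in limma with this block was 0.060, for HOXC10 (log2 difference -1.29, SE 0.27). HOXD9, HOXB5, HOXA7 and HOXB4 followed with adjusted p of 0.116, 0.117, 0.127 and 0.174 in the same limma fit. With the block, IL-1β in HK-2 alone and in RPTEC/TERT1 alone gave 0 genes in all (0.0%), with 4 and 2 HOX genes at an unadjusted p under 0.05, and the difference between lines gave 0 genes (0.0%) and 0 HOX genes at that level. Some cell type markers passed as lower in the fit with the block: of 11 proximal tubule markers LRP2 and SLC34A1, and of 4 epithelial markers CDH1 (SLC34A1 and CDH1 well above background on 4 and 6 arrays), with log2 differences for LRP2 of -2.37, -2.70, -2.64 and -2.04. Other listed markers rose on some slides without passing. The proximal tubule marker ANPEP differed by 2.26 and 2.22 on HK-2 slide 1 and RPTEC/TERT1 slide 2, and PAX8 by 1.22, -0.34, -0.13 and 1.06 in slide order. SLC12A1, the distal marker high on HK-2 slide 1 and RPTEC/TERT1 slide 2, differed by -4.83 and -5.51 there and did not pass (adjusted p = 0.27 in limma with the block). Their part in the HOX values was not tested.

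When limma fitted each slide as a block with 1 IL-1β effect for all slides, 1771 genes (9.94%) passed. Among them were 4 of 29 HOX genes, all lower: HOXC10 (adjusted p = 0.0244), HOXD9 (adjusted p = 0.0421), HOXB5 (adjusted p = 0.0423) and HOXA7 (adjusted p = 0.0482). The log2 differences were those given above, with SE of 0.28, 0.36, 0.34 and 0.28. This fit leaves more residual degrees of freedom, 6 against 4, and assumes the same effect on every slide, which the values of HOXD9 above do not show.

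With Empa few HOX genes differed 2-fold from control. Each slide has a single control array for both treatments, so the IL-1β and Empa differences of a gene are not independent of each other. At least 2-fold lower were 2 of 28 on HK-2 slide 1 (HOXC10 and HOXD11; 12.5% of all genes), 0 of 27 on HK-2 slide 2 (2.97%), 3 of 27 on RPTEC/TERT1 slide 1 (HOXA7, HOXA10 and HOXC13; 2.84%; the other HOXA10 probe differed by -0.04) and 0 of 28 on RPTEC/TERT1 slide 2 (1.81%). At least 2-fold higher were HOXB13 on HK-2 slide 1 (5.82% of all genes) and HOXB13 and HOXD4 on RPTEC/TERT1 slide 2 (2.81%), and no HOX gene on the other slides (3.56% and 2.21%). The medians of the HOX genes were 0.11, -0.12, -0.18 and 0.27 in slide order, beside 0.11, -0.10, -0.04 and 0.02 for all genes.

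On all 4 slides, 4 of 29 HOX genes were lower with Empa (HOXA7, HOXB4, HOXC10 and HOXD11; 13.3% of all genes) and 4 were higher (HOXA2, HOXC9, HOXD1 and HOXD3; 11.7%), shares close to those of all genes. HOXC10 was at -2.05, -2.35, -2.49 and -0.60 with Empa, a log2 difference of -0.70 ± 0.64 (SD, n = 4 slides) that came largely from HK-2 slide 1, where it was 3.07-fold lower. HOXD11, a group 11 gene used in the early kidney, was at -1.43, -2.40, -2.59 and -1.35 on the control arrays and at -2.63, -2.83, -2.79 and -1.47 with Empa. Its log2 difference was -0.49 ± 0.50 (SD, n = 4 slides), with HK-2 slide 1 again the largest at 2.31-fold lower. HOXD11 with IL-1β was at -1.31, -2.43, -2.24 and -1.71, with no direction shared by the slides.

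HOXA7 was at 3.67, 1.68, 0.05 and 4.47 with Empa (log2 difference -0.47 ± 0.38, SD, n = 4 slides). In the other direction, HOXD1 was at 0.52, -3.77, -3.93 and 0.65 with Empa (0.47 ± 0.36) and HOXD3 at 3.15, -1.19, -1.32 and 2.67 (0.39 ± 0.40). Both HOXD genes moved least on the slides where their control levels were low. With IL-1β, HOXD3 was at 0.99, -1.40, -1.62 and 1.27, lower on all 4 slides, and HOXD1 was at -0.51, -3.93, -4.23 and -0.49.

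In limma 0 HOX genes passed for Empa in HK-2, in RPTEC/TERT1, as the mean of both lines or as the difference between lines, with or without the replicate block, where 0 genes passed in all (0.0% each). With the block 2 HOX genes (HOXB13 and HOXC10) had an unadjusted p under 0.05 for the mean of both lines, and the smallest adjusted p in limma was 0.610. With 1 Empa effect for all slides 1 gene passed (0.00561%), which was not a HOX gene.

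HOXB13, HOXC13 and HOXD4 were dim on some slides, so their differences are partly bounds. On each slide both treatments are set against the same control array. HOXB13 was at -5.91, -2.31, -1.89 and -3.93 with IL-1β and at -3.96, -1.75, -2.01 and -3.86 with Empa. As bounds, on RPTEC/TERT1 slide 2 it was 3.27-fold higher with IL-1β and 3.43-fold higher with Empa, and on HK-2 slide 1 3.64-fold higher with Empa. On the slides with high HOXB13 it differed by at most 1.25-fold. HOXC13 was at -5.71, -5.29, -4.99 and -7.31 with IL-1β and at -8.71, -4.80, -4.66 and -6.40 with Empa. On HK-2 slide 2 it was 2.63-fold lower with IL-1β and 1.88-fold lower with Empa. On RPTEC/TERT1 slide 1 it was, as bounds, 3.30-fold lower with IL-1β and 2.61-fold lower with Empa. HOXD4 was at -5.27, -8.71, -7.61 and -6.28 with IL-1β, not well above background on any of these arrays and, as a bound, 1.83-fold lower on HK-2 slide 1. With Empa it was at -4.25, -7.23, -8.71 and -4.29 and, as a bound, 2.00-fold higher on RPTEC/TERT1 slide 2.

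Genes with several probes gave a check on the choice of probe. Both HOXD9 probes were lower with IL-1β on HK-2 slide 1 (log2 differences of -2.12 for the brightest and -3.19 for the other) and on RPTEC/TERT1 slide 2 (-2.44 and -2.68). Both HOXD3 probes were lower there as well (-1.17 and -0.72, then -1.14 and -0.99). The other HOXD3 probe, well above background on 8 arrays, differed by 0.21 with IL-1β on RPTEC/TERT1 slide 1 and by 0.04, -0.58, -0.04 and 0.35 with Empa in slide order, so it shared neither HOXD3 direction on 4 of 4 slides. The HOXA10 probes disagreed on RPTEC/TERT1 slide 2, with 0.85 for the brightest, whose bases lie on both sides of an intron, and -1.21 for the other, and agreed on HK-2 slide 1 at -0.97 and -1.31. The HOXA9 probes disagreed on the same slide, at 0.07 and -1.27. HOXA4, with 1 probe, was at -1.15, -0.03, -0.27 and -1.09 with IL-1β and at 0.67, -0.21, -0.63 and 0.55 with Empa, and HOXA9 was at 0.15, 0.65, 0.34 and 1.31 and at 0.65, 0.94, 0.31 and 1.78.

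Upstream sequence was read for the genes that were lower with IL-1β on 4 of 4 slides. Of these 8 genes, 4 had an entry in the RefSeq promoter table (GRCh38.p14), and their 250 bases before the start are shown with each CCAAT box, the letters CCAAT on either strand, in capitals (ATTGG when the box lies on the other strand). CCAAT boxes are bound by the factor NF-Y in many promoters.
HOXA6 (chr7:27147775-27148024, minus strand): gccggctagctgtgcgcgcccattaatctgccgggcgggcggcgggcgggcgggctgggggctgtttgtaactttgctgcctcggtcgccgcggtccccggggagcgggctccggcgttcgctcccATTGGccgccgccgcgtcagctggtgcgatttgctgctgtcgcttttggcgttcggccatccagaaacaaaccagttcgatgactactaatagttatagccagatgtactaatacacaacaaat
HOXA7 (chr7:27156676-27156925, minus strand): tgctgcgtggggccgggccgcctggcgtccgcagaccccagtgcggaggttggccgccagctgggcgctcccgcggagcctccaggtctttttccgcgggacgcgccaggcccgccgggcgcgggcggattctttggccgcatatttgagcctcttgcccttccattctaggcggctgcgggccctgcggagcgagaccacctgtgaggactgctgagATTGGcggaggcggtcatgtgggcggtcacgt
HOXC4 (chr12:54016638-54016887, plus strand): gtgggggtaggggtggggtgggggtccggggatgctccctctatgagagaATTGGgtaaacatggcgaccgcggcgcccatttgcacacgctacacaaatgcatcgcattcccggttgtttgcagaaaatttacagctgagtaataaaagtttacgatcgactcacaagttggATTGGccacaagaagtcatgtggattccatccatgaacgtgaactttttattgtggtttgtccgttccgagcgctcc
HOXD3 (chr2:176157057-176157306, plus strand): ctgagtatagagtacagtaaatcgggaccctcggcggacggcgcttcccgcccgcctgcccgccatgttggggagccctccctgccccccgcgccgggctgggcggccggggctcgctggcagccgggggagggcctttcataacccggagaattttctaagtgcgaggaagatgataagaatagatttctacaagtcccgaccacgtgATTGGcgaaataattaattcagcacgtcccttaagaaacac
All 4 held a CCAAT box. The window shown for HOXC4 is listed for HOXC5 as well, and the counts of starts and windows below include it once for each gene. Of the 20 HOX genes in the table, 17 held one before at least 1 start (18 of 27 starts), and so did 32.0% of all 35116 starts, so the box was common among HOX genes whether or not they were lower with IL-1β. The letters GGGNNTTTCC on either strand, a form of the site of NF-κB, were in 0 of the 27 HOX windows and in 1.73% of all. A match in these windows is a description of the letters and not a bound site. The HOX windows held a median of 19 CG dinucleotides (0 to 40), against 11 over all starts.

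The other genes of the pathway were read from lists. Of 10 NF-κB response genes, 9 were on the array, 9, 8, 7 and 9 of them were at least 2-fold higher with IL-1β in slide order, and the median log2 difference with IL-1β was 6.24, 3.69, 3.49 and 5.83. Of these 9, 7 rose with the replicate block in limma (NFKBIA, CCL2, CXCL8, CXCL1, CXCL2, IRAK2 and ZC3H12A) and 1 without it (ZC3H12A). Among 11 TALE cofactors, the PBX, MEIS, PKNOX and TGIF proteins, 10 were tested and 0 passed with IL-1β or Empa in either fit. Polycomb genes were all on: 20 of 20 were well above background on all 4 control arrays, and 0 passed for IL-1β or Empa. Of 11 KMT2 complex, Menin and H3K27 demethylase genes, 0 passed either.

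Of 17 genes of retinoic acid metabolism and reception, 14 were tested, and 1 fell with IL-1β in limma with the replicate block: DHRS3, a retinal reductase, at -1.41, -1.97, -1.69 and -0.66 in slide order (adjusted p = 0.04). It was well above background on 7 arrays only, and on HK-2 slide 1 and RPTEC/TERT1 slide 2 its levels with IL-1β, -5.88 and -5.87, lay near background, so the differences there are not exact. Its control levels of -4.48, 4.10, 3.55 and -5.21 were high on the slides where most HOX genes were low. Of 20 noncoding genes listed within the HOX clusters, 6 were on the array and 4 were tested. HOXA11-AS, an antisense RNA of HOXA11, fell on all slides (-2.16, -1.16, -1.55 and -2.09; adjusted p = 0.04 in limma with the block) from control levels of 0.96, -2.12, -2.10 and 1.16. Whether the probes of HOXA11 and of this antisense partner take each other's signal was not tested. HOXA11 itself was at -3.50, -5.15, -5.43 and -3.37 on the control arrays and well above background on 7 arrays. The other tested noncoding genes did not pass with IL-1β in either fit. HOXD-AS1 was higher with IL-1β on all slides (0.64, 0.74, 0.65 and 0.27). HOXA-AS3 was lower on all slides (-0.32, -0.21, -0.70 and -0.04). HOXA-AS2, well above background on 6 arrays, differed by -2.62, -0.96, 0.13 and -2.71. HOTAIR, of the HOXC cluster, and HOXB-AS3 were well above background on no array.

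Of 11 genes that flank the clusters, 9 were tested and 0 passed for IL-1β or Empa. Their medians with IL-1β were -0.49, -0.04, -0.27 and -0.35 in slide order. At least 2-fold lower were 0 of 8 on HK-2 slide 1 and on RPTEC/TERT1 slide 2, where 16 and 14 of 27 HOX genes were. Over all genes the shares there were 14.0% and 11.9%, so 0 of 8 does not set the flanking genes apart from all genes. On HK-2 slide 2 and RPTEC/TERT1 slide 1, 2 of 9 and 1 of 9 were this much lower. PRAC1 and EVX2 were well above background on no array. Of 6 ParaHox genes, relatives of the HOX genes outside the clusters, CDX1 and GSX1 were tested, 0 passed, and GSX2, PDX1, CDX2 and CDX4 were well above background on no array.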

How the data were processed

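The authors hybridized RNA to 12 one-colour Agilent arrays, 2 for each of 6 groups, and deposited the intensities as Feature Extraction 9.5.3.1 wrote them, with a fitted background taken off and spatial trends removed but no normalization across arrays. A second deposited file holds 44473 log2 values whose distribution is shared within a slide but not across slides. Here outlier spots were dropped and the spots of a probe averaged. Signals were divided by the 75th percentile of the array (297.7 to 765.4 signal units), brought to a common level, given a floor of 1 unit there and log2-transformed. The number of arrays limits the precision, and dim values rest on the floor. The number of unmapped columns of per-sample values was 0.

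Version 3.58.1 of limma (R 4.3.3) was run on 17821 genes with 6 groups, Benjamini-Hochberg adjustment and a threshold of 0.05, and was tested on simulated data. Arrays of a slide deviated together from their group means (r = 0.704 to 0.892 across 17792 genes), so the replicate numbers pair the arrays within a line, and fits with the number as a block are given. P-values measure the spread between these arrays. Values on each array are given for up to 6 genes per treatment with 1 direction on 4 of 4 slides and a signal well above background on at least 8 arrays, for the 8 largest and 3 smallest control ranges, for genes past the threshold, and for HOXB4. A few items are not reported here. The members and lists were chosen with earlier results of these data known.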

Additional observations from a re-analysis of the deposited data

Results flagged for a closer look

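HOXB2 with Empa went to opposite sides in the labelled lines. The log2 difference from control was -0.66 and -0.18 on the HK-2 slides and 0.04 and 0.22 on the RPTEC/TERT1 slides, so that RPTEC/TERT1 exceeded HK-2 by 0.556 log2 units. In limma this difference between the lines did not pass the threshold, with an unadjusted p of 0.53 when slides were ignored and 0.16 with the replicate number as a block (adjusted p = 1.0 in both). The other HOXB2 probe differed by 0.38, 0.19 and -0.31 on the first 3 slides.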

How the results depend on the processing

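Over the settings tried, 337 of 357 counts stayed within 1.5 times the reported one, and 359 of 377 log2 differences of named genes kept their direction and their side of the threshold. The replicate block changed no call of a HOX gene as the study's groups stand, while 1 effect per treatment with the slides as blocks gave 4 HOX genes for IL-1β, and a floor of 5 signal units with the block gave 1 (HOXC10, adjusted p = 0.0477 in limma). For IL-1β as the mean of both lines, the genes past the threshold numbered 3, and 567 with the block, 1771 with 1 effect, 487 with quantile normalization and the block, 3.97% of genes with a floor of 5 and the block, 632 with outlier spots kept and the block, and 637 in the authors' table with the block. Without it they numbered 11 after normexp and quantile normalization, 23 with no filter, 6 with a filter on both arrays of a group and 5 over every probe. Control arrays of the same number in the 2 lines deviated against each other (r = -0.819). With the replicate 2 slides exchanged between the lines, as chosen after seeing the data, limma called 24 of 29 HOX genes between the control groups (36.6% of all genes), 13 for IL-1β in the group holding HK-2 slide 1 (20.1%), 7 for the difference between lines (5.72%) and 12 for the mean (19.7%). That exchange groups the slides found most alike on these same arrays, so the spread within groups is small by choice. The calls are therefore a description and not a test.

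The count of HOX genes lower on every slide with IL-1β ranged from 8 to 14 when 1 slide was left out (14 without HK-2 slide 2), and normexp gave 2 higher genes. With Empa the counts ranged from 4 to 9 lower (9 without RPTEC/TERT1 slide 2) and from 4 to 8 higher (8 without RPTEC/TERT1 slide 1). At least 2-fold lower with IL-1β on HK-2 slide 2 were 0 HOX genes under quantile normalization, normexp and the authors' table, and on RPTEC/TERT1 slide 1 there were 0 under normexp and the authors' table. With Empa on HK-2 slide 1 there were 1 under normexp and 0 in the authors' table, and on RPTEC/TERT1 slide 1 there was 1 in each. Between the controls of HK-2 slide 1 and RPTEC/TERT1 slide 2, 5 of 28 HOX genes differed 2-fold in the authors' table (36.2% of all genes). In that table the median difference of all genes between these controls, RPTEC/TERT1 slide 2 minus HK-2 slide 1, was -0.60. Leaving out 1 array turned the sign of HOXA6 with IL-1β (-2.66 to 0.22, turned without the control of RPTEC/TERT1 slide 2) and of HOXA7 (-1.57 to 0.64), HOXD1 (-0.68 to 1.61) and HOXD3 (-0.69 to 1.48) with Empa. The causes were not tested. The 3 values of a slide compare single arrays, and genes that were not well above background have only bounds.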
